A study of Mus musculus with 19 samples.

Results

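Csf1r, its ligands Csf1 and Il34, the TGF-beta ligands Tgfb1 and Tgfb2, and the TGF-beta receptor chains Tgfbr1 and Tgfbr2 are the signals that keep microglia alive and in their resting state. These 7 genes were chosen by name as ligands and receptors of both pathways, and their Ensembl mouse gene IDs were looked up in the count table. They do not cover every ligand, as the TGF-beta ligand Tgfb3 is not among the 7 and is reported below with the genes that store and free TGF-beta. All 7 were among its 20655 genes, and all 7 were among the 18204 genes that passed the filter on low counts. Their transcripts were measured by RNA sequencing of hippocampus from 19 mice aged 4 months, with 1 library for each animal. Knock-in mice were hemizygous for 5xFAD and homozygous for CLUh2kbKI, an allele of the gene for clusterin, a secreted chaperone and lipid carrier made mostly by astrocytes (4 females and 5 males). Their comparison group, called 5xFAD below, was hemizygous for 5xFAD and without that allele (5 females and 5 males). All animals therefore carried the 5xFAD transgenes, mutant human amyloid precursor protein and presenilin genes that the neuronal Thy1 promoter drives, and libraries of mice without them were not analysed here. The labels do not give the sequence that CLUh2kbKI changes. They tie each genotype to its own title prefix and its own ranges of animal and library numbers, so genotype and any batch that follows those numbers cannot be told apart.

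Microglia are the resident macrophages of brain, and their survival depends on Csf1r, a receptor tyrosine kinase. Csf1 and Il34 bind the same receptor. In mouse forebrain Il34 comes mainly from neurons and Csf1 from glia. TGF-beta ligands are secreted in a latent complex and must be freed from it before they can act. The free ligand binds the type II chain Tgfbr2, which recruits and phosphorylates the type I chain Tgfbr1, which in turn phosphorylates Smad2 and Smad3. In microglia this pathway maintains genes of the homeostatic state, such as P2ry12, Tmem119 and Olfml3.

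RefSeq promoter sequences, on GRCm38.p6, are shown for the TGF-beta ligands and receptors because these ligands and these receptor chains are compared as pairs. Each is the 250 bases before the gene's start, 5′ to 3′ on the gene's strand. Capitals mark TATAAA (the TATA box), GGGCGG (the GC box), CACGTG (an E-box) and GAGGAA (the PU box bound by PU.1), each searched on both strands, with no overlap between the marked matches.
Tgfb1 (chr7:25686752-25687001, plus strand): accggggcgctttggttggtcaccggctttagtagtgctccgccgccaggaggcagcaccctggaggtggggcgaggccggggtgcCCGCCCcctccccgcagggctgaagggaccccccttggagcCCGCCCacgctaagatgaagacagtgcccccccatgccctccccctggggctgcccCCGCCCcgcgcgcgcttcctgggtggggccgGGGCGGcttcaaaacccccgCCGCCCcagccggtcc
Tgfb2 (chr1:186705990-186706239, minus strand): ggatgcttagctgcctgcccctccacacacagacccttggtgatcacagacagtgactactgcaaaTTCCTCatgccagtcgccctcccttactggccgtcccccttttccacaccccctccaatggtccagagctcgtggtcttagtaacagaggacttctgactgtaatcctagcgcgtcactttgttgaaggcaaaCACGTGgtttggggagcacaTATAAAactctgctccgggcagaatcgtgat
Tgfbr1 (chr4:47352972-47353221, plus strand): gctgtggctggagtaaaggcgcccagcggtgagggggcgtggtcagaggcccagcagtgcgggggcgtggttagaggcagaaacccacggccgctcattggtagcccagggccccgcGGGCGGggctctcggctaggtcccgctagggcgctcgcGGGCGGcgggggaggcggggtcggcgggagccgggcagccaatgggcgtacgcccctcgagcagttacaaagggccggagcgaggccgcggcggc
Tgfbr2 (chr9:116175364-116175613, minus strand): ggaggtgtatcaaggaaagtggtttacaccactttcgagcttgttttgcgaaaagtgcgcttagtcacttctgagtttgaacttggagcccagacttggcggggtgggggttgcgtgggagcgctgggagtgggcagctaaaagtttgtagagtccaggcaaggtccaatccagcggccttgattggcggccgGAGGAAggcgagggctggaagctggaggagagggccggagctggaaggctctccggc
The Tgfb1 window was 75.2% G and C, held 5 GC boxes and no TATAAA. The Tgfb2 window was 53.6% G and C, held no GC box, and had 1 TATAAA that began 31 bases before the start, beside 1 CACGTG and 1 GAGGAA. Tgfbr1 had 74.8% G and C and 2 GC boxes in the window shown, which is the first of its 2 entries, and Tgfbr2 had 58.4% G and C and 1 GAGGAA. Over the 32851 promoter windows of this length the median was 52.4% G and C. Of them 12.4% held TATAAA, 32.7% held GGGCGG, 6.02% held CACGTG and 23.2% held GAGGAA.

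Libraries held 17.28 to 25.2 M estimated counts (M stands for mega). Xist and Ddx3y matched the labelled sex in 19 of 19 libraries, and no pair of libraries within a group was identical. Clu, the gene at which the knock-in was made, averaged 1069 ± 214 CPM in knock-in mice (SD, n = 9) and 979 ± 120 CPM in 5xFAD mice (SD, n = 10), a log2 fold change of 0.13 (SE 0.103, edgeR adjusted p = 0.665). CPM is the count scaled to a library total of 1 M after TMM scaling. In this whole-tissue RNA, fewer cells of a type and less RNA per cell cannot be told apart.

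Csf1r was the most abundant of the 7 genes and lay at rank 1178 of the 18204 genes by mean log2 CPM. Per kb of the longest annotated transcript it averaged 36.3 CPM over all 19 libraries, followed by Il34 at 20.1, Tgfb2 at 9.79, Csf1 at 8.88, Tgfbr1 at 8.65, Tgfbr2 at 5.19 and Tgfb1 at 4.81 CPM per kb. Csf1r exceeded Il34, and Il34 exceeded Tgfb2, in 19 of 19 libraries. Tgfb2 exceeded Csf1 in 12, Csf1 exceeded Tgfbr1 in 11 and Tgfbr2 exceeded Tgfb1 in 9 of the 19, so these neighbours in the order were not separated on this length. With the merged length of all annotated exons in place of the longest transcript, Tgfbr1 at 7.62 CPM per kb passed Csf1 at 7.02, and Tgfb1 stood at 2.45 CPM per kb, below Tgfbr2 in 19 of 19 libraries. The order of Tgfbr2 and Tgfb1 therefore depends on the length used. Within each pair of related genes, the level per kb of Il34 exceeded that of Csf1 in 19 of 19 libraries (median ratio 2.27), that of Tgfb2 exceeded Tgfb1 in 19 of 19 (2.10) and that of Tgfbr1 exceeded Tgfbr2 in 19 of 19 (1.61). With merged exons the median ratio was 2.63 for Il34 to Csf1, 3.63 for Tgfb2 to Tgfb1 and 1.43 for Tgfbr1 to Tgfbr2.

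The first comparison asked whether homozygosity for the knock-in goes with a change in these signals. Csf1r, Tgfb1 and Tgfbr2 had the largest differences, between 0.39 and 0.45 on the log2 scale and higher in knock-in mice, while Il34 stood near 0. None of the 7 passed an adjusted p of 0.05 in edgeR's quasi-likelihood test over both sexes, against 4 of all 18204 genes (0.022%). At an unadjusted p under 0.05, 4 of the 7 were higher in knock-in mice, against 6.15% of all genes.

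**Figure D1:**
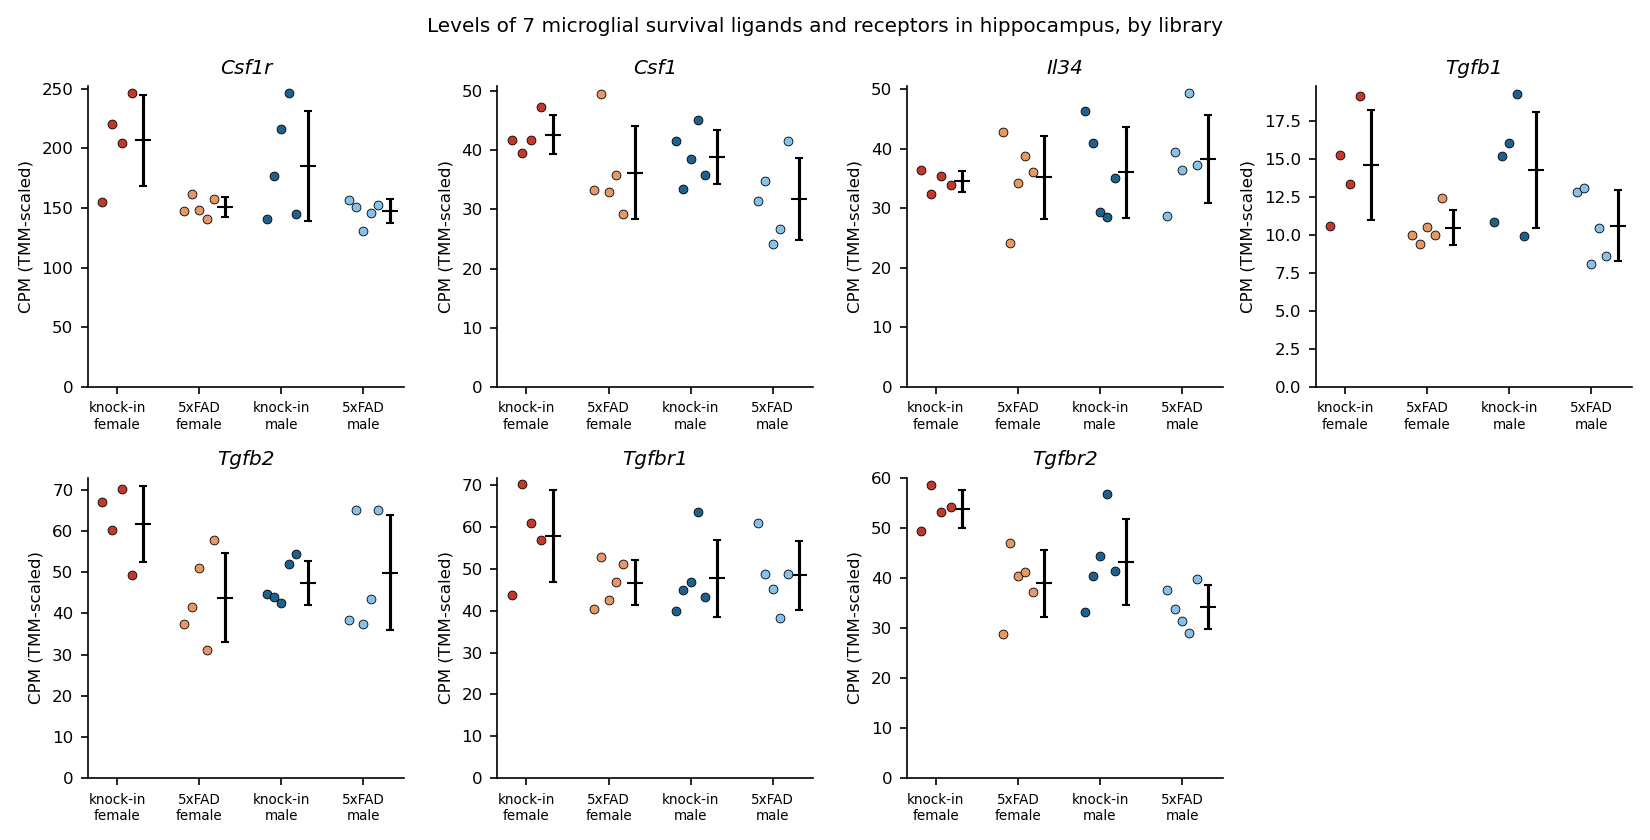
CPM of each gene (y axis, from 0) in each library (points), by group (x axis), with the mean and SD of the group beside the points. Knock-in libraries reach 246 CPM of Csf1r in females and 247 CPM in males, while the 10 libraries of 5xFAD mice lie between 131 and 162 CPM.

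Csf1r, the receptor for both colony-stimulating ligands, stood at 155, 220.5, 205 and 246 CPM in knock-in females, against 147, 162, 148, 141 and 158 CPM in 5xFAD females. It stood at 140.5, 177, 217, 247 and 145 CPM in knock-in males, against 157, 151, 131, 146 and 153 CPM in 5xFAD males. Of the 9 knock-in libraries 6 lay above every 5xFAD library, and the other 3, female 1 and males 6 and 10, lay within the 5xFAD range. The mean was 194.7 ± 41.7 CPM in knock-in mice (SD, n = 9) and 149 ± 9.0 CPM in 5xFAD mice (SD, n = 10), and the coefficient of variation was 21.4% in knock-in mice and 6.03% in 5xFAD mice. The log2 fold change was 0.39 (SE 0.0985), with an edgeR adjusted p of 0.175. DESeq2, run as an alternative, gave the same size of change, 0.39, and an adjusted p of 0.033. Exons of Csf1r overlap those of Hmgxb3 on the opposite strand by 873 bases, and the strand setting of the libraries is not given. Hmgxb3 had 655 to 1172 counts per library and a log2 fold change of -0.09 (edgeR adjusted p = 0.663).

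Csf1, the ligand made by glia, stood at 41.8, 39.6, 41.7 and 47.3 CPM in knock-in females, against 33.3, 49.6, 32.9, 35.9 and 29.3 CPM in 5xFAD females. In knock-in males it stood at 41.6, 33.5, 38.5, 45.1 and 35.9 CPM, against 31.4, 34.9, 24.1, 26.7 and 41.6 CPM in 5xFAD males. The highest of all libraries was 5xFAD female 2, and the groups overlapped in both sexes. Means were 40.6 ± 4.28 CPM in knock-in mice (SD, n = 9) and 34.0 ± 7.35 CPM in 5xFAD mice (SD, n = 10), a log2 fold change of 0.27 (SE 0.103, edgeR adjusted p = 0.337).

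Il34, the neuronal ligand, stood at 36.3, 32.4, 35.4 and 34.0 CPM in knock-in females, against 42.8, 24.2, 34.3, 38.8 and 36.1 CPM in 5xFAD females. In knock-in males it stood at 46.4, 40.9, 29.4, 28.5 and 35.0 CPM, against 28.8, 39.4, 36.5, 49.3 and 37.2 CPM in 5xFAD males. The groups overlapped throughout, and 5xFAD female 2, the library with the most Csf1, had the least Il34. The log2 fold change of Il34 was -0.06 (SE 0.111, edgeR adjusted p = 0.883), and 2 SE to either side ran from -0.28 to 0.16.

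Tgfb1, the TGF-beta ligand that microglia themselves express, stood at 10.6, 15.3, 13.4 and 19.1 CPM in knock-in females, against 10.02, 9.37, 10.5, 10.01 and 12.4 CPM in 5xFAD females. It stood at 10.9, 15.2, 16.02, 19.2 and 9.93 CPM in knock-in males, against 12.8, 13.1, 8.08, 10.4 and 8.61 CPM in 5xFAD males. As for Csf1r, 6 of 9 knock-in libraries lay above every 5xFAD library, and female 1 and males 6 and 10 did not. Means were 14.4 ± 3.50 CPM in knock-in mice (SD, n = 9) and 10.5 ± 1.73 CPM in 5xFAD mice (SD, n = 10), the largest log2 fold change among the 7 genes at 0.45 (SE 0.134, edgeR adjusted p = 0.251).

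Tgfb2, the second TGF-beta ligand, stood at 67.0, 60.2, 70.2 and 49.2 CPM in knock-in females, against 37.4, 41.5, 51.1, 31.2 and 57.9 CPM in 5xFAD females. In knock-in males it stood at 44.6, 43.9, 42.4, 51.9 and 54.4 CPM, against 38.5, 65.0, 37.3, 43.5 and 64.9 CPM in 5xFAD males. In females 3 of 4 knock-in libraries lay above every 5xFAD library, while in males the knock-in values lay inside the 5xFAD range. Over both sexes the log2 fold change was 0.19 (SE 0.139, edgeR adjusted p = 0.613).

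Tgfbr1, the kinase chain that signals to Smads, stood at 43.7, 70.2, 60.9 and 56.8 CPM in knock-in females, against 40.3, 52.8, 42.4, 46.9 and 51.0 CPM in 5xFAD females. It stood at 39.97, 44.8, 46.9, 63.6 and 43.2 CPM in knock-in males, against 61.0, 48.8, 45.3, 38.3 and 48.9 CPM in 5xFAD males. Knock-in female 1 lay within the range of 5xFAD females, and all knock-in males but male 9 lay within that of 5xFAD males. The log2 fold change was 0.13 (SE 0.107, edgeR adjusted p = 0.657).

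Tgfbr2, the ligand-binding chain, stood at 49.3, 58.6, 53.3 and 54.1 CPM in knock-in females, against 28.8, 47.1, 40.5, 41.2 and 37.2 CPM in 5xFAD females. It stood at 33.3, 40.4, 44.5, 56.8 and 41.4 CPM in knock-in males, against 37.6, 33.8, 31.3, 29.0 and 39.7 CPM in 5xFAD males. The groups did not overlap in females, and in males 4 of 5 knock-in libraries lay above every 5xFAD library, male 6 being the exception. Of all genes, 3.86% had females of the groups apart in this direction. Means over both sexes were 48.0 ± 8.57 CPM in knock-in mice (SD, n = 9) and 36.6 ± 5.87 CPM in 5xFAD mice (SD, n = 10). The log2 fold change was 0.40 (SE 0.0967), with an edgeR adjusted p of 0.156. DESeq2 gave an adjusted p of 0.0293, and edgeR without 5xFAD male 10 gave 0.0413.

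**Figure D2:**
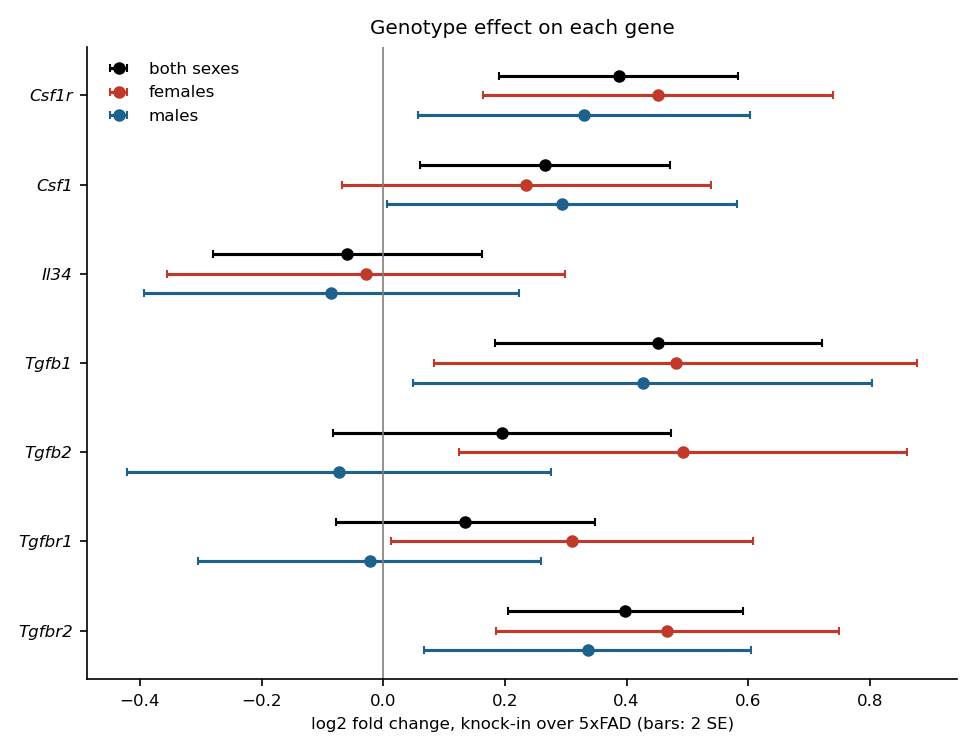
Log2 fold change of knock-in over 5xFAD mice (x axis) for each gene (rows), over both sexes (black), in females (red) and in males (blue), with bars of 2 SE to either side. Csf1r, Tgfb1 and Tgfbr2 lie to the right of 0 in all 3 estimates, Il34 lies near 0, and Tgfb2 is at 0.49 in females and -0.07 in males.

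In females, none of the 7 genes passed an edgeR adjusted p of 0.05, against 1013 of all genes (5.56%). Tgfbr2 had a log2 fold change of 0.47 (edgeR adjusted p = 0.0542) and Csf1r one of 0.45 (adjusted p = 0.066). Tgfb2 had 0.49 (adjusted p = 0.115), Tgfb1 0.48 (adjusted p = 0.152), Tgfbr1 0.31 (adjusted p = 0.225), Csf1 0.23 (adjusted p = 0.381) and Il34 -0.03 (adjusted p = 0.944). At an unadjusted p under 0.05, 5 of the 7 were higher in knock-in females, against 8.84% of all genes. Csf1r and Tgfbr2 were near the threshold, and whether they passed varied with the setting. Over the 19 runs that each left out 1 library, the edgeR adjusted p ran from 0.0273 to 0.183 for Csf1r. It ran from 0.0358 to 0.179 for Tgfbr2. Without knock-in female 2 or knock-in female 4, no gene of the table passed. DESeq2, which called more of all genes in females than edgeR, passed both (adjusted p of 0.0308 and 0.0253). EdgeR passed both without knock-in female 1 (0.0273 and 0.0486), without knock-in male 6 (0.0494 and 0.0417), without knock-in male 9 (0.0385 and 0.0358) or without knock-in male 10 (0.0407 and 0.0465). Tgfbr2 alone passed without 5xFAD female 2 (0.0492), 5xFAD male 9 (0.0449) or 5xFAD male 10 (0.0381), males entering because all 4 groups share 1 estimate of spread.

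The 2 female groups also differed in nuclear and imprinted long noncoding RNAs. Of 8 on the list, 7 were lower in knock-in females at an edgeR adjusted p of 0.05, Meg3 and Neat1 among them, against 5.56% of all genes called in either direction, and Malat1 stood at -1.53 (adjusted p = 0.0759). The mean level of the 8 was 6.53 ± 0.43 log2 CPM in knock-in females (SD, n = 4) and 8.21 ± 0.17 log2 CPM in 5xFAD females (SD, n = 5), against 7.81 ± 0.53 log2 CPM in knock-in males (SD, n = 5) and 7.67 ± 0.74 log2 CPM in 5xFAD males (SD, n = 5). With this level as a covariate, the log2 fold change in females was 0.43 for Csf1r, 0.70 for Tgfb1, 0.39 for Tgfbr2 and 0.21 for Tgfb2, and no gene of the whole table passed edgeR's adjusted p of 0.05 in females. Across all 19 libraries with group means removed, Pearson's r with the noncoding level was -0.06 for Csf1r and -0.31 for Tgfb2, the largest in size among the 7 genes.

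In males, none of the 7 genes passed the edgeR adjusted p of 0.05, against 0 of all genes (0%), and DESeq2 called 19 of all genes and none of the 7. At an unadjusted p under 0.05, 3 of the 7, Csf1r, Tgfb1 and Tgfbr2, were higher in knock-in males, against 3.39% of all genes. Csf1r had a log2 fold change of 0.33 (edgeR adjusted p = 0.724), Tgfb1 of 0.43 (adjusted p = 0.738), Tgfbr2 of 0.34 (adjusted p = 0.717) and Csf1 of 0.29 (adjusted p = 0.753). Il34 stood at -0.09 (adjusted p = 0.95), Tgfb2 at -0.07 (adjusted p = 0.962) and Tgfbr1 at -0.02 (adjusted p = 0.987).

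The genotype by sex interaction, the log2 fold change in females minus that in males, tested whether the sexes differed in this response. None of the 7 genes passed edgeR's adjusted p of 0.05, against 56 of all genes (0.308%). Tgfb2 had the largest interaction, 0.57 (SE 0.254, edgeR adjusted p = 0.246). It stood at 0.24 with the noncoding level as a covariate, which cannot be separated from genotype in females. Tgfbr1 followed at 0.33 (adjusted p = 0.419), and the other 5 genes lay between -0.06 and 0.13 with adjusted p of at least 0.78.

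Females and males were also compared within each genotype. In knock-in mice none of the 7 genes differed by sex at an edgeR adjusted p of 0.05, against 9 of all genes (0.0494%). Tgfb2 was 0.38 higher in knock-in females than in knock-in males on the log2 scale (adjusted p = 0.355), Tgfbr2 was 0.31 higher (adjusted p = 0.299) and Tgfbr1 0.28 higher (adjusted p = 0.406). In 5xFAD mice none of the 7 passed either, against 7 of all genes (0.0385%). The log2 difference of 5xFAD females from 5xFAD males ran from -0.19 for Tgfb2 to 0.19 for Csf1. Ordered by mean CPM, knock-in females stood first for 6 of the 7 genes and last for Il34, and neighbouring groups in these orders overlapped within 1 SD for all 7 genes.

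Ratios within a library do not depend on how libraries are scaled, and were compared for both ligand pairs and for the receptor chains with exact two-sided permutation tests of genotype within sex, 9 tests in all. The Tgfbr1 to Tgfbr2 ratio was lower in knock-in mice. On the log2 scale it was -0.18, 0.26, 0.19 and 0.07 in knock-in females, against 0.49, 0.17, 0.07, 0.19 and 0.46 in 5xFAD females. In males it was 0.26, 0.15, 0.08, 0.16 and 0.06 in knock-in mice, against 0.70, 0.53, 0.53, 0.40 and 0.30 in 5xFAD mice. The male groups did not overlap and the female groups did. Over both sexes the means were 0.12 ± 0.13 in knock-in mice (SD, n = 9) and 0.38 ± 0.20 in 5xFAD mice (SD, n = 10), a difference of -0.27 (exact p = 0.00271, 0.0244 adjusted over the 9 tests). In males the difference was -0.35 (exact p = 0.00794, the smallest that 5 against 5 allows, 0.0357 adjusted), and in females it was -0.19 (exact p = 0.238). For the Tgfbr1 to Tgfbr2 ratio in males, the adjusted exact p was 0.0714 without any 1 of the knock-in males, and with the authors' deposited normalized counts the difference in males was -0.23 (adjusted exact p = 0.143).

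**Figure D3:**
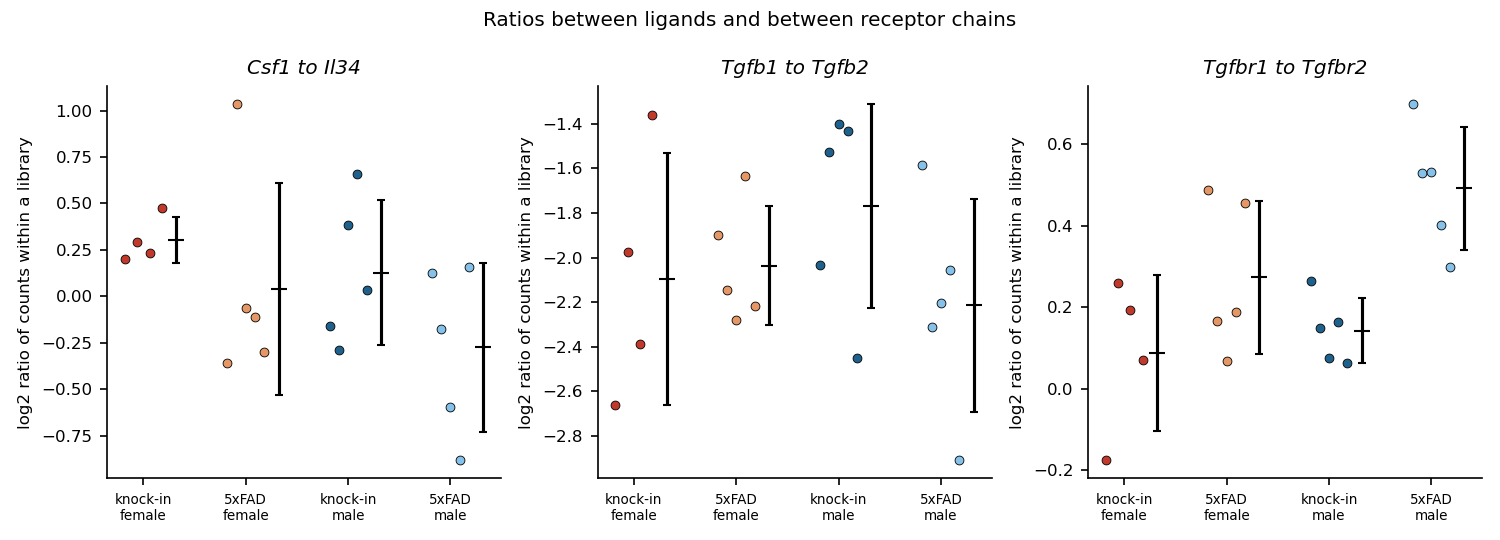
Log2 ratio of counts within each library (y axis, points) for both ligand pairs and the receptor chains, by group (x axis), with the mean and SD beside the points. The ratio of Tgfbr1 to Tgfbr2 lies at or below 0.26 in knock-in males and at or above 0.30 in 5xFAD males.

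The Csf1 to Il34 ratio was 0.20, 0.29, 0.24 and 0.48 on the log2 scale in knock-in females, against -0.36, 1.04, -0.06, -0.11 and -0.30 in 5xFAD females. In males it was -0.16, -0.29, 0.39, 0.66 and 0.04 in knock-in mice, against 0.13, -0.18, -0.60, -0.88 and 0.16 in 5xFAD mice. In females, 5xFAD female 2 lay above all 4 knock-in libraries and the other 4 5xFAD females below them. The difference over both sexes was 0.33 (exact p = 0.108, 0.324 adjusted over the 9 tests). Over the 19 runs that each left out 1 library, the adjusted exact p ran from 0.0238 to 0.5. The lowest came without 5xFAD female 2, where the Csf1 to Il34 ratio differed by 0.46. This library had the highest ratio of all libraries, so leaving it out could only raise the difference, and no conclusion is drawn from that run. For the Tgfb1 to Tgfb2 ratio the difference was 0.19 over both sexes (exact p = 0.365), -0.06 in females (exact p = 0.841) and 0.44 in males (exact p = 0.175).

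The defining markers of microglia were present in every library, and all 16 on the list were higher in knock-in mice (median log2 fold change 0.40, against 0.00 over all genes). Only Olfml3 among them passed edgeR's adjusted p of 0.05. Of all genes, 0.022% passed and 49.6% lay above 0. Their summed level ran from 952 to 1438 CPM in knock-in females and from 836 to 1051 CPM in 5xFAD females. In males it ran from 850 to 1277 CPM in knock-in mice and from 654 to 867 CPM in 5xFAD mice. Summed markers of border macrophages reached at most 12.4 CPM in any library, and those of blood leukocytes at most 3.23 CPM, with Ccr2 at 0 counts in 3 libraries, Plac8 in 4 and Cd3e in 5. All 8 astrocyte markers were also higher in knock-in mice, with a median of 0.21, and none of the 8 passed the edgeR threshold over both sexes. In females their median was 0.31 and 1 of the 8, the water channel gene Aqp4, passed (0.54, edgeR adjusted p = 0.0403). Markers of several other cells also lay higher in knock-in mice over both sexes, with none called. The median was 0.41 for 6 of 6 tested border macrophage markers, 0.48 for 6 of 6 of leptomeningeal fibroblasts, 0.23 for 6 of 6 of mural cells, 0.93 for 6 of 6 of choroid plexus and 0.64 for 5 of 5 of erythrocytes. It was 0.19 for 7 of 7 oligodendrocyte markers, 0.13 with 5 of 6 above 0 for endothelium and 0.07 for 5 of 5 of hippocampal neurons. Of 8 general neuron markers, 2 lay above 0 (median -0.03), and in males 1 did (median -0.12). Summed choroid plexus markers varied from 33.0 CPM in knock-in male 8 to 11384 CPM in knock-in female 4. In females the erythrocyte median was 1.01, and Hba-a1, Hbb-bs and Hbb-bt passed (3 of 5, against 5.56% of all genes), while the border macrophage median was 0.59. Of these cells, only the microglial markers were set against the 7 genes, in the next paragraph. The part of the other cells in the values of the 7 genes was not tested.

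The mean log2 CPM of the 16 microglial markers, called the microglial level, was 5.61 ± 0.22 in knock-in mice (SD, n = 9) and 5.21 ± 0.17 in 5xFAD mice (SD, n = 10). Across all 19 libraries with group means removed, Csf1r followed it with Pearson's r = 0.815 (permutation p = 0.00048, 0.00672 adjusted over 14 relations) and Spearman's rho = 0.774 (permutation p = 0.00166, 0.0232 adjusted). Without the 2 libraries farthest from the median level r was 0.714, and it was 0.887 within knock-in mice and 0.705 within 5xFAD mice. The relation of Tgfb1 to the microglial level, r = 0.657, did not pass adjustment (permutation adjusted p = 0.0639), and r was 0.908 within knock-in mice and 0.133 within 5xFAD mice. Csf1 had r = 0.546 (permutation adjusted p = 0.0637), Tgfbr1 0.456, Tgfbr2 0.405, Tgfb2 -0.163 and Il34 -0.327. With the microglial level as a covariate, the log2 fold change of knock-in over 5xFAD mice was -0.04 for Csf1r, -0.05 for Tgfb1, -0.02 for Csf1 and 0.20 for Tgfbr2, and none of all genes passed edgeR's adjusted p of 0.05.

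**Figure D4:**
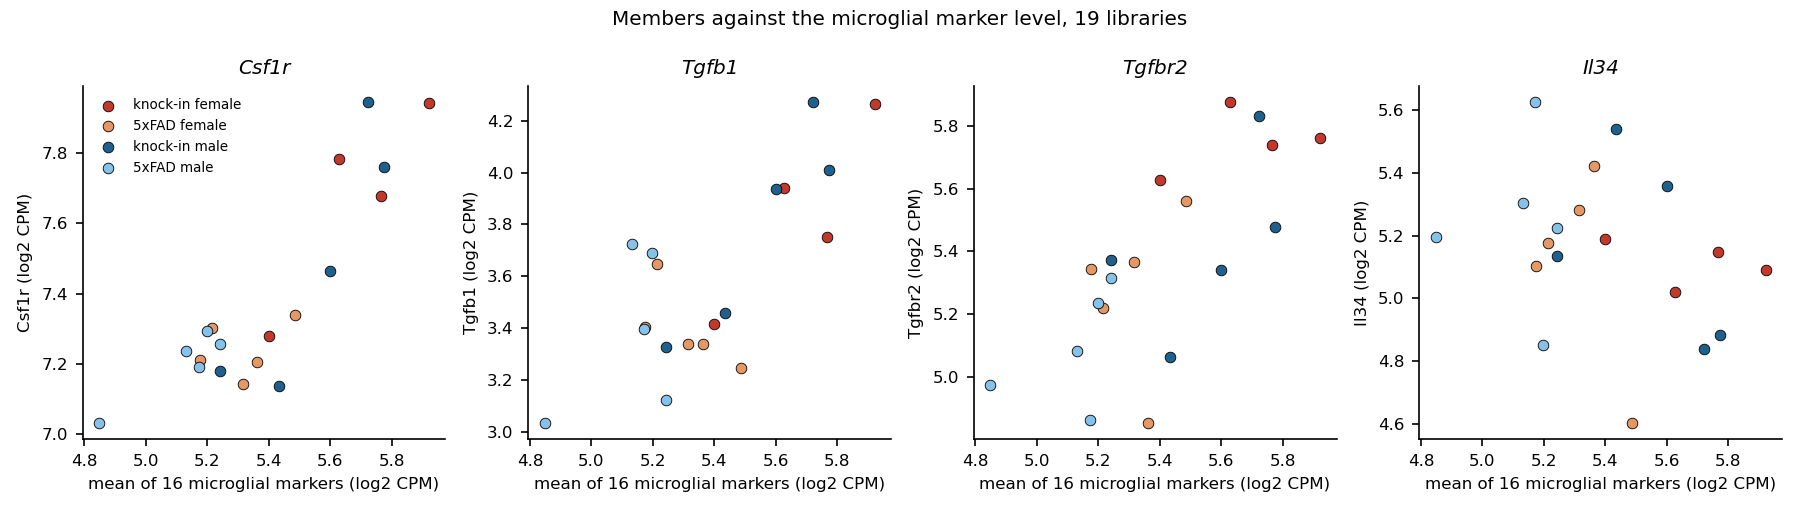
Log2 CPM of Csf1r, Tgfb1, Tgfbr2 and Il34 (y axes) against the mean log2 CPM of 16 microglial markers (x axis) in 19 libraries, coloured by group. Csf1r climbs with the microglial level within both genotypes, and Il34 has no such slope.

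How the 7 genes varied together between libraries, once group means were removed, is described here by Pearson's r over 19 libraries that share tissue and depth range. Tgfb1 and Csf1r had r = 0.84, and each was among the 12 genes most like the other of 12840 compared. Tgfbr1 and Tgfbr2 had 0.77, and Csf1r and Tgfbr1 had 0.71. Il34 ran opposite to the receptors, with -0.81 to Tgfbr2, -0.72 to Tgfbr1 and -0.54 to Csf1r. Tgfb2 had values from -0.03 to 0.20 with the other 6 genes.

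**Figure D5:**
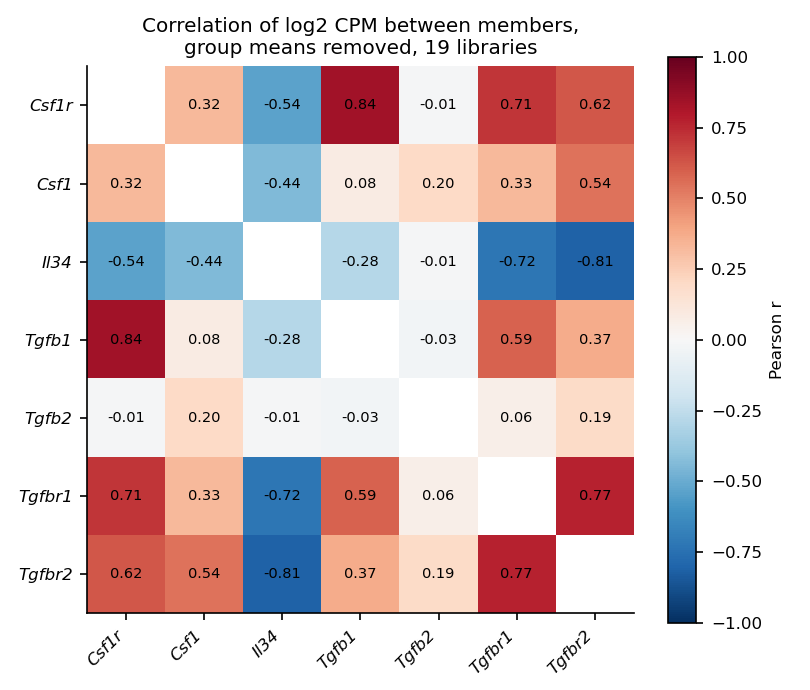
Pearson's r between each pair of the 7 genes (rows and columns), from log2 CPM with the mean of each group removed, over 19 libraries. Csf1r and Tgfb1 reach 0.84, Il34 and Tgfbr2 stand at -0.81, and the row of Tgfb2 stays between -0.03 and 0.20.

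By the same measure, the 5 genes most like Csf1r were Laptm5, a lysosomal membrane protein of blood-lineage cells (r = 0.931), Slc11a1, a metal transporter of macrophage phagosomes (0.918), Cd180 (0.902), Osmr (0.890) and Grn, which encodes progranulin (0.885). Among those most like Tgfb1 were Cd53 (0.896), Cyp4f14 (0.875), Selplg (0.846) and Csf1r (0.838). Those most like Csf1 were Arhgap30 (0.917), Bin2 (0.860), the Fc receptor gene Fcgr2b (0.850), Spata13 (0.828) and the macrophage gene Mpeg1 (0.821). Tgfbr1 was most like P2ry12, the purinergic receptor of resting microglia (0.867), followed by Zfp984 (0.857), Tnfsf10 (0.856), Slc35d1 (0.83) and Sppl2a (0.826). Tgfbr2 was most like Abcc9, a potassium channel subunit of mural cells (0.880), then Plxdc2 (0.879), Fyb (0.870), Pld1 (0.855) and Sgpl1 (0.851). Il34 was most like B4galnt4 (0.889), Rps6kl1 (0.869), Sult4a1 (0.855), Mvd (0.849) and the calcium channel subunit gene Cacnb3 (0.842). Tgfb2 was most like Npy2r (0.841), Myo5b (0.831), Lhx9 (0.816), the Wnt antagonist gene Frzb (0.793) and Arhgef26 (0.788). Of the 50 genes most like each, microglial markers made up 4 for Csf1r, 3 for Tgfb1, 2 for Csf1, 1 each for Tgfbr1 and Tgfbr2 and 0 for Il34 and Tgfb2.

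Other genes of the Csf1r pathway showed no called change with the knock-in. Of 15 partners and signalling genes, none passed edgeR's adjusted p of 0.05 in the genotype effect, against 0.022% of all genes. Their median log2 fold change was 0.06. The lowest p values belonged to Inpp5d, a phosphatase of myeloid cells (0.39, adjusted p = 0.156), Tyrobp, an adaptor that also serves Trem2 (0.46, adjusted p = 0.243), Adam17, the sheddase of Csf1r (0.21, adjusted p = 0.337), and Cbl, a ubiquitin ligase for Csf1r (-0.20, adjusted p = 0.405). Of 10 macrophage transcription factors, 9 lay above 0 with a median of 0.31, and none passed. Of all genes, 49.6% lay above 0 and 0.022% passed. Spi1, which encodes PU.1, averaged 9.66 ± 1.76 CPM in knock-in mice (SD, n = 9) and 6.28 ± 1.24 CPM in 5xFAD mice (SD, n = 10), a log2 fold change of 0.62 (edgeR adjusted p = 0.148). Irf8 had 0.37 and Cebpa 0.24 (adjusted p = 0.333 each).

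Genes that store and free TGF-beta were 17 on the list, of which Ltbp2 and Itgb6 did not pass the count filter. None of the other 15 passed over both sexes (median log2 fold change 0.19). In females 2 of the 15 passed, against 5.56% of all genes. Itgb8, the integrin subunit that frees TGF-beta with the alpha-v chain, rose by 0.74 in knock-in females (SE 0.171, edgeR adjusted p = 0.018), against -0.03 in males (adjusted p = 0.983). Itgb5, another partner of the alpha-v chain, rose by 0.53 in knock-in females (SE 0.132, adjusted p = 0.0241), against 0.40 in males (adjusted p = 0.662), with 0.46 over both sexes (adjusted p = 0.0805). The genotype by sex interaction was 0.77 (edgeR adjusted p = 0.102) for Itgb8 and 0.13 (edgeR adjusted p = 0.758) for Itgb5. Neither passed in females without knock-in female 2 or knock-in female 4, where no gene of the table passed. Neither passed with the noncoding level as a covariate, but that level did not overlap between the female groups, so this loss cannot separate it from genotype. Over both sexes Lrrc32, an anchor of latent TGF-beta, had 0.49 and Mmp14 had 0.26 (adjusted p = 0.337 each). Nrros, on the same list, stood at 0.0056 (adjusted p = 0.99), with means of 7.24 CPM in knock-in mice and 7.20 CPM in 5xFAD mice. The ligand Tgfb3, also on this list, stood at -0.0013 (edgeR adjusted p = 0.998). Its means were 11.3 CPM in knock-in mice and 11.4 CPM in 5xFAD mice.

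Of 9 co-receptors and related receptors, Bmpr1a, a type I receptor for bone morphogenetic proteins, was the 1 that passed in females, where 5.56% of all genes did (log2 fold change 0.46, SE 0.135, edgeR adjusted p = 0.0498), against -0.14 in males (adjusted p = 0.879), with an interaction of 0.60 (edgeR adjusted p = 0.108). This call, too, was lost when either knock-in female 2 or knock-in female 4 was left out, and with the noncoding covariate, which cannot be separated from genotype in females. None of the 9 passed over both sexes, where Acvrl1 had 0.25 (adjusted p = 0.353), Tgfbr3, or betaglycan, 0.30 (adjusted p = 0.462) and Acvr2a -0.13 (adjusted p = 0.669). None of the 6 Smad signal transducers and none of the 11 inhibitors passed in edgeR over both sexes, in females or in males. Of all genes, 0.022% passed over both sexes, 5.56% in females and 0% in males. Smad2 stood at -0.05 (adjusted p = 0.813), Zfyve9, which presents Smads to the receptor, at -0.06 (adjusted p = 0.817), Smad4 at 0.06 (adjusted p = 0.843) and Smad5 at 0.05 (adjusted p = 0.856). Among inhibitors, Smad6 had 0.36 (adjusted p = 0.373), Pmepa1, a TGF-beta target that restrains Smads, 0.20 (adjusted p = 0.39), Smurf1 -0.11 (adjusted p = 0.655) and Bambi, a decoy receptor, 0.16 (adjusted p = 0.739).

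Microglial genes that are known to depend on TGF-beta lay above 0 in 16 of 16 cases over both sexes, with a median log2 fold change of 0.37, and 1 of them passed, against 0.022% of all genes. Olfml3, a secreted protein of microglia, averaged 52.8 ± 10.9 CPM in knock-in mice (SD, n = 9) and 34.8 ± 5.59 CPM in 5xFAD mice (SD, n = 10), a log2 fold change of 0.62 (SE 0.104, edgeR adjusted p = 0.0277). It also passed in females alone (0.52, adjusted p = 0.044) and had 0.72 in males (adjusted p = 0.208). In females no gene of the table, Olfml3 included, passed with the noncoding or the microglial level as a covariate, or without knock-in female 2 or knock-in female 4. The noncoding level cannot be separated from genotype in females, and Olfml3 is itself part of the microglial level. Fcrls had 0.44 (adjusted p = 0.148) and P2ry13 0.45 (adjusted p = 0.165). Of these 16 genes 10 are also among the markers that make up the microglial level.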

How the data were processed

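RNA sequencing of 19 hippocampi was analysed from deposited tables, with groups taken from the genotype and sex labels and replicates being separate animals. The authors deposited estimated counts per gene as whole numbers, and a second table of normalized counts, a signal scaled by factors that differ between genes and libraries. The variance-stabilized values were not used. The submitters' processing notes name Salmon, FastQC, Seurat and DESeq2 and the build mm39, and give neither their versions nor their roles. Per the labels' protocols, RNA had an integrity number of at least 7 and reads were paired at 150 bases, from 2 kinds of instrument. The strand setting is not given in the sources used here, so reads of overlapping genes on opposite strands cannot be told apart.

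Symbols, exon lengths and overlaps came from GENCODE M21 on GRCm38, which named 20023 of 20655 gene IDs. No coordinates of the files' build are printed. The counts went into edgeR 4.0.16 (R 4.3.3, TMM factors, filterByExpr with a minimum of 10 counts, robust quasi-likelihood F-test), with Benjamini-Hochberg adjustment over 18204 genes and a threshold of 0.05. The genotype effect had sex as a covariate. All other contrasts were taken from a single fit of 4 group means. Log2 CPM used a prior count of 2, and ratios added 0.5 to each count. Correlations used 100000 permutations. Intervals of 2 SE give the uncertainty of the estimated log2 fold change, which depends on the spread between animals, and are not the range of single animals. On simulated data with known changes, edgeR recovered 42% of genes changed by 0.5 on the log2 scale in the genotype effect and 14% in females. The simulations gave 113 calls in the genotype effect and 80 in females, against 4 and 1013 in the data. The adjustment therefore acted differently there, and these shares do not give the power of the tests reported here.

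The 7 genes and all gene lists were chosen with earlier results of these data known. Named genes were the 7 genes, up to 4 genes of each list with the lowest p in the genotype effect, and the 5 genes most like each of the 7 (symbol known, mean of at least 1 log2 CPM, no predicted genes or pseudogenes). Some genes that this rule names are not reported here. Itgb8, Itgb5, Bmpr1a and Olfml3 are also named as the genes of lists that passed. Hmgxb3, Tgfb3, Nrros and the cell markers are named for the limits they carry. Alternatives were DESeq2 1.42.0, limma-voom 3.58.1, size factors of DESeq2, plain library size, no filter, a filter of 1 CPM in 4 libraries, the authors' normalized counts, the microglial and noncoding levels as covariates, the replicate number as a block and each library left out. Same-numbered animals of the 2 genotypes did not deviate together (r above 0.1 in 2 of 9 pairs), and the labels do not pair them. Precision is set by 17.28 to 25.2 M counts (M stands for mega) per library. Between 155 and 6021 counts lay behind each value of the 7 genes.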

Additional observations from a re-analysis of the deposited data

Results flagged for a closer look

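In 5xFAD female 2 the log2 ratio of Csf1 to Il34 was 1.04, while the other 4 libraries of 5xFAD females lay between -0.36 and -0.06. This library stood apart from its group, with both the highest Csf1 and the lowest Il34 of all 19 libraries. In 5xFAD male 8 the microglial level was 4.85 log2 CPM, below the 5.13 to 5.24 log2 CPM of the other 4 libraries of 5xFAD males, and Csf1r, Csf1 and Tgfb1 were lowest of all libraries there, at 131, 24.1 and 8.08 CPM. These were 2 of 48 sets of 4 or 5 values examined, and chance marks about 1 in 20 such sets.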

How the results depend on the processing

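Of the 7 genes, none passed edgeR's threshold in the genotype effect, and DESeq2 passed 2. In the genotype effect in females, 1 passed without the count filter, 1 with 1 CPM in 4 libraries and 2 in DESeq2. Leaving out single libraries gave 0 to 1 of the 7 in the genotype effect and 0 to 2 in the genotype effect in females.

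Over all genes, the genotype effect called 4, against 2 in limma-voom, 1 with library size only, 1 with the authors' normalized counts, 2 with the noncoding covariate, 0 with the microglial covariate, 0 with the replicate number as a block and 107 in DESeq2, and 1 to 127 without single libraries. It called 127 without 5xFAD male 10 and 31 without knock-in female 1. The genotype effect in females called 1013, against 0 with the noncoding covariate, the microglial covariate or the replicate block and 1810 in DESeq2, and 0 to 1334 without single libraries. It called 0 without knock-in female 2 or knock-in female 4, 364 without 5xFAD female 1 and 439 without 5xFAD female 4. The genotype effect in males called 0, 1 with library size only and 19 in DESeq2, and 0 to 2 without single libraries. The genotype by sex interaction called 56, against 0 in limma-voom, with DESeq2's size factors, without the filter, with the authors' values, with the noncoding covariate or with the replicate block, 134 with the microglial covariate, 402 with library size only and 766 in DESeq2, and 0 to 489 without single libraries. The sex effect in knock-in called 9, against 17 with the authors' values and 510 in DESeq2, and 8 to 340 without single libraries. The sex effect in 5xFAD called 7, and 16 in DESeq2. None of the 7 genes passed in the main fit or with the replicate block, so the block had no call of these genes to change.

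The microglial covariate cannot be fully separated from genotype. With the microglial covariate the genotype effect turned to -0.0414 for Csf1r, -0.019 for Csf1, 0.12 for Il34, -0.0498 for Tgfb1 and -0.0907 for Tgfbr1. In females it turned to -0.0236 for Csf1 and 0.14 for Il34, and in males to -0.15 for Csf1r, -0.0137 for Csf1, 0.10 for Il34, -0.12 for Tgfb1 and 0.0459 for Tgfb2. Il34 in females was 0.00416 without the filter and 0.00482 with the authors' values, and Tgfbr1 in males 0.0144 with library size only and 0.0671 with the authors' values. The interaction with library size only, which moved the median of all genes to -0.15, was -0.015 for Csf1r, -0.0692 for Il34, -0.0758 for Tgfb1 and -0.0113 for Tgfbr2. It was 0.0778 for Csf1 with the authors' values and -0.0145 for Il34 with the noncoding covariate. The sex effect in knock-in turned to -0.0181 for Tgfb1 with library size only and 0.062 for Il34 with the authors' values. The sex effect in 5xFAD turned to 0.0029 in limma-voom and 0.0577 with library size only for Tgfb1, and to 0.0303 with library size only and 0.14 with the authors' values for Tgfbr1. None of these reversed values passed.

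The log2 fold change of some of the 7 genes changed sign when single libraries were left out, always short of the threshold. In the genotype effect it ran from -0.12 to 0.00517 for Il34. In the genotype effect in females it ran from -0.15 to 0.0452 for Il34. In the genotype effect in males it ran from -0.15 to 0.0745 for Tgfbr1, from -0.16 to 0.0416 for Tgfb2 and from -0.19 to 0.0144 for Il34. In the interaction it ran from -0.10 to 0.21 for Tgfb1, from -0.062 to 0.16 for Il34 and from -0.15 to 0.0702 for Csf1. In the sex effect in knock-in it ran from -0.10 to 0.20 for Tgfb1 and from -0.13 to 0.0444 for Il34. In the sex effect in 5xFAD it ran from -0.0942 to 0.0681 for Tgfb1, from -0.12 to 0.0445 for Tgfbr1 and from -0.21 to 0.00939 for Il34.

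The Tgfbr1 to Tgfbr2 ratio kept its direction throughout. With the replicate number as a block it differed by -0.29 (adjusted exact p = 0.141), and the Tgfbr1 to Tgfbr2 ratio in males by -0.35 (0.281, in a design of 5 pairs that cannot pass the threshold). The Tgfbr1 to Tgfbr2 ratio in males was -0.23 with the authors' values (0.143). The Tgfb1 to Tgfb2 ratio in females turned to 0.037 with the authors' values. The cause was not tested for any of these. Without single libraries the Tgfbr1 to Tgfbr2 ratio ran from -0.30 to -0.22, in males from -0.40 to -0.30, the Csf1 to Il34 ratio from 0.26 to 0.46 and the Tgfb1 to Tgfb2 ratio in females from -0.31 to 0.13.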
